A study of Gallus gallus with 15 samples.

Results

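The cytosolic chaperonin CCT, also called TRiC, was followed through the genes of its 8 subunits, TCP1, CCT2, CCT3, CCT4, CCT5, CCT6A, CCT7 and CCT8, in abdominal adipose tissue of young chickens. Every probe set of the array whose annotation gave 1 of these symbols was taken, which found 13 probe sets, and all 13 passed the filter on low values, out of 18612 probe sets that passed it, which represent 9243 genes. The birds were male commercial broilers (ISA915) aged 16 to 17 days, in 3 groups of 5. Insulin-neutralized birds stayed on feed and received porcine anti-insulin serum at 0, 2 and 4 h, fasted birds went without feed for 5 h, and fed birds ate ad libitum. The fasted and fed birds received normal porcine serum, so all 15 birds carried injected pig serum. Insulin action was blocked by an antiserum and not by a genetic change. The RNA of each bird was hybridized to its own array, the GeneChip Chicken Genome Array of Affymetrix, and expression is given as log2 values after GCRMA, a background correction and normalization that uses the base content of the probes. The comparisons asked which transcripts respond to the loss of feed and which to the loss of insulin action in birds that still eat.

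CCT is a barrel of a pair of stacked rings, each ring built from 1 copy of all 8 subunits in a fixed order. It uses ATP to close over an unfolded protein and release it folded, and actin and tubulin, many WD40-repeat proteins and other large proteins depend on it. Prefoldin delivers actin and tubulin to it, and phosducin-like proteins adjust its work. In the yeast and bovine complexes TCP1, CCT2, CCT4 and CCT5 lie on the side of the ring that binds ATP most strongly, and CCT3, CCT6, CCT7 and CCT8 lie on the other side. The subunits are paralogs that cannot replace each other, and each is essential in yeast.

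By the brightest probe set of each gene, all 8 subunits were lower on average in fasted than in fed adipose tissue. By the same probe sets, all 8 were lower on average in insulin-neutralized than in fed adipose tissue, by differences of at most 38.4%. Dimmer probe sets of CCT6A and CCT8, given below, did not all share this direction. In fasted vs. fed birds the differences ran between 9.41% and 23.3%, and CCT4 and CCT6A passed the threshold of an adjusted p under 0.05 (limma, Benjamini-Hochberg adjustment over all probe sets kept). Thus 2 of 8 subunits were called lower and none higher, where 9.64% of all probe sets were called in either direction, 4.69% lower and 4.95% higher. In insulin-neutralized vs. fed birds the differences ran between 10.1% and 38.4%, and CCT3 alone passed, so 1 of 8 was called, where 0.494% of all probe sets were called, 0.226% lower and 0.269% higher. No subunit was called in insulin-neutralized vs. fasted birds, where 4.06% of all probe sets were, 2.53% lower and 1.54% higher. Because the tissue was measured in bulk, fewer cells of a type and less RNA per cell cannot be told apart in any of these values. The same 5 fed birds served both comparisons against fed, so the shared sign in both is not independent.

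**Figure D1:**
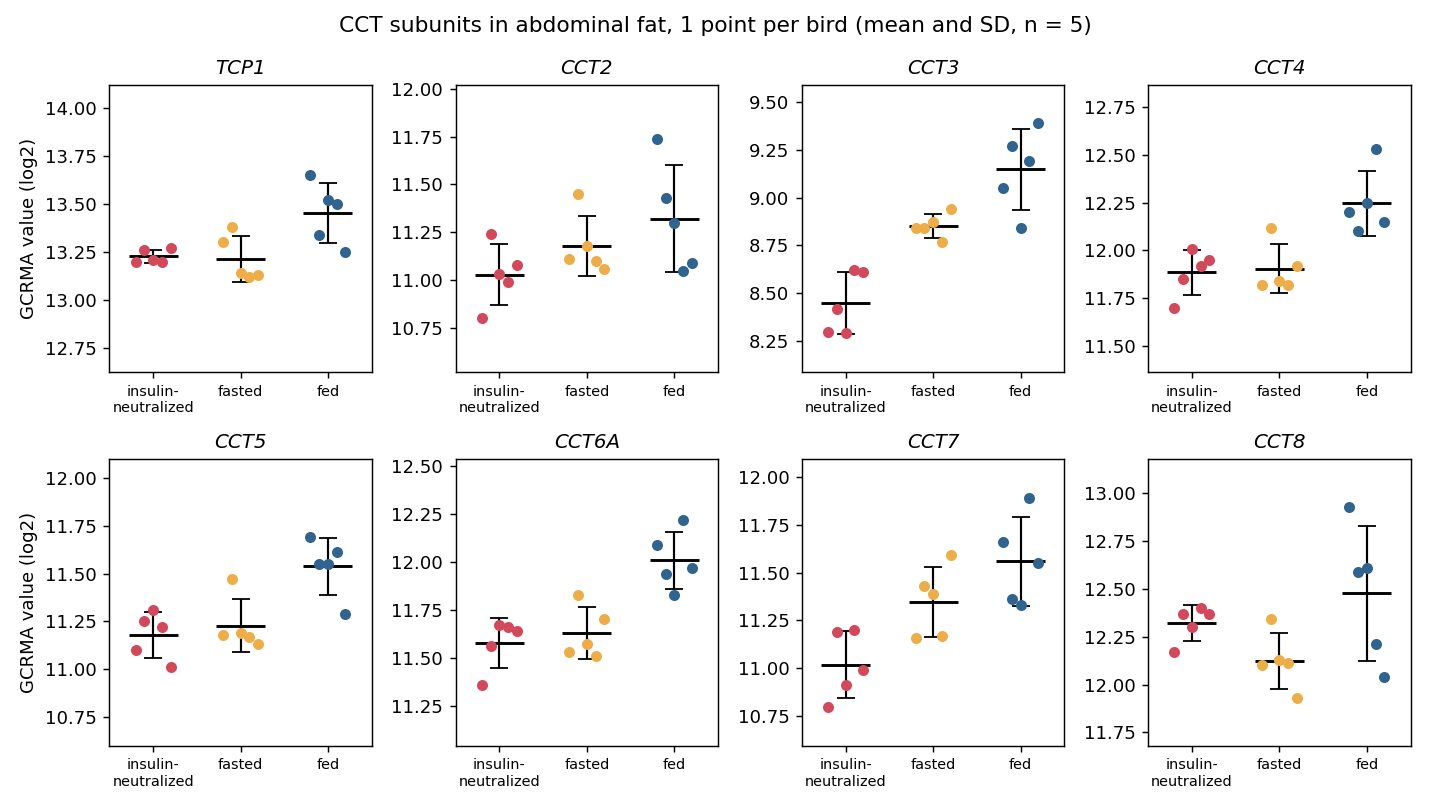
GCRMA values (log2, y axis) of the 8 subunits, 1 panel per gene and 1 point per bird, for insulin-neutralized, fasted and fed birds, with the mean and SD of 5 birds as lines. Each panel spans its own range of values; CCT3, CCT4, CCT6A and CCT7 have all 5 insulin-neutralized birds below all 5 fed birds.

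The subunits of the side with strong ATP binding are given first. CCT4, the delta subunit, which contacts actin in the bovine complex, was read by 2 probe sets. By the brighter of them its log2 values were 11.70, 11.85, 12.01, 11.92 and 11.95 in insulin-neutralized birds 1 to 5, 11.82, 12.12, 11.84, 11.82 and 11.92 in fasted birds, and 12.20, 12.10, 12.25, 12.53 and 12.15 in fed birds. Fasted bird 2 lay just above the lowest fed bird, and the other 4 fasted birds and all 5 insulin-neutralized birds lay below every fed bird. CCT4 averaged 11.90 ± 0.13 in fasted birds and 12.24 ± 0.17 in fed birds (SD, n = 5 each), a log2 fold change of -0.34 (95% interval -0.56 to -0.13) or 21.2% lower, with a limma adjusted p of 0.0432. This call held under 10 of 27 alternative settings, over which the adjusted p ran between 0.0226 and 0.104. It was lost without fasted bird 1, 3, 4 or 5 (adjusted p 0.0932, 0.0855, 0.0993 and 0.0674), without fed bird 1, 3 or 4 (0.0631, 0.0685 and 0.079), and also without insulin-neutralized bird 2, 3, 4 or 5 (0.0575, 0.0525, 0.0552 and 0.0549). In insulin-neutralized birds the mean was 11.89 ± 0.12, and the log2 fold change against fed birds was -0.36 (-0.57 to -0.15) with an adjusted p of 0.119. The second probe set of CCT4 gave log2 fold changes of -0.34 in fasted vs. fed birds (limma adjusted p = 0.086) and -0.48 in insulin-neutralized vs. fed birds (0.077), close to those of the first. Its overlap between groups was the reverse of the first. All fasted birds lay below all fed birds, while insulin-neutralized bird 4 (10.69) lay just above fed bird 5 (10.68).

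CCT5, the epsilon subunit, which can assemble into rings by itself when the human protein is made in bacteria, was read by 1 probe set, as were TCP1, CCT2, CCT3 and CCT7. It measured 11.10, 11.25, 11.31, 11.22 and 11.01 in insulin-neutralized birds, 11.18, 11.47, 11.19, 11.17 and 11.13 in fasted birds, and 11.69, 11.55, 11.55, 11.61 and 11.29 in fed birds. Fed bird 5 was low within its group and fasted bird 2 was high within its own, and outside these birds the groups did not overlap with fed birds, except for insulin-neutralized bird 3, which lay above fed bird 5. The log2 fold change was -0.31 in fasted vs. fed birds (95% interval -0.52 to -0.10) with a limma adjusted p of 0.0579. Without fed bird 5 that p was 0.0212 and without fasted bird 2 it was 0.0273. In insulin-neutralized vs. fed birds the log2 fold change was -0.36 (-0.57 to -0.15), with an adjusted p of 0.11.

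TCP1 is the alpha subunit, which gave the complex its first name. It measured 13.20, 13.26, 13.21, 13.20 and 13.27 in insulin-neutralized birds, 13.30, 13.38, 13.14, 13.12 and 13.13 in fasted birds, and 13.65, 13.34, 13.52, 13.50 and 13.25 in fed birds. The insulin-neutralized birds were tightly grouped, with an SD of 0.03 against 0.12 in fasted birds and 0.16 in fed birds, and fed bird 5 lay among them. The log2 fold changes were -0.24 (-0.43 to -0.05) in fasted vs. fed birds and -0.23 (-0.41 to -0.04) in insulin-neutralized vs. fed birds, with limma adjusted p of 0.0995 and 0.217. Without fed bird 5 the adjusted p in fasted vs. fed birds was 0.044.

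CCT2 is the beta subunit, which in mammalian cells has also been described as a receptor for the autophagy of protein aggregates. It measured 10.80, 11.24, 11.03, 10.99 and 11.08 in insulin-neutralized birds, 11.11, 11.45, 11.18, 11.10 and 11.06 in fasted birds, and 11.74, 11.43, 11.30, 11.05 and 11.09 in fed birds. Fed birds 4 and 5 lay within the range of insulin-neutralized birds and at the low end of the fasted birds, and only fed bird 1 stood above all 10 birds of those groups. The log2 fold changes were -0.14 (-0.43 to 0.14) in fasted vs. fed birds and -0.29 (-0.58 to -0.01) in insulin-neutralized vs. fed birds, with limma adjusted p of 0.554 and 0.272. These intervals leave room for a decrease similar in size to that of CCT4.

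On the other side of the ring, CCT3, the gamma subunit, showed the largest decrease of the 8 in insulin-neutralized birds. It measured 8.30, 8.42, 8.29, 8.62 and 8.61 in insulin-neutralized birds, 8.84, 8.84, 8.87, 8.77 and 8.94 in fasted birds, and 9.05, 9.27, 8.84, 9.19 and 9.39 in fed birds. Every insulin-neutralized bird lay below every fasted and every fed bird, while fed bird 3 lay among the fasted birds. CCT3 averaged 8.45 ± 0.16 in insulin-neutralized birds and 9.15 ± 0.21 in fed birds (SD, n = 5 each), a log2 fold change of -0.70 (SE 0.11, 95% interval -0.93 to -0.47) with a limma adjusted p of 0.0197. That call held under 22 of 27 alternatives, with adjusted p between 0.00221 and 0.101. It was lost without insulin-neutralized bird 1, 2 or 3 (0.0756, 0.0566 and 0.057) and without fed birds 4 and 5 together (0.0565). In the same order, 7, 8, 9 and 31 of all 18612 probe sets were called in these settings, against 92 in the main fit. The log2 fold change of CCT3 stayed between -0.78 and -0.61 throughout. In fasted vs. fed birds CCT3 differed by -0.30 (-0.53 to -0.07), with an adjusted p of 0.0952 that was 0.0329 without fed bird 3.

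CCT3 also had the largest difference of the 8 in insulin-neutralized vs. fasted birds. The log2 fold change between those groups was -0.40 (-0.63 to -0.17), or 24.2% lower in insulin-neutralized birds, and the limma adjusted p of 0.0524 missed the threshold. It passed under 9 of 27 alternatives, among them the settings without fed bird 3 (0.0333) and without fed bird 5 (0.0338), which enter this comparison only through the shared estimate of the spread. CCT7 came next with -0.33 (-0.60 to -0.05, adjusted p = 0.186). Of 2 signs of RNA quality, 1 also differed between these groups: the 3' minus 5' difference of the actin control probe sets was 1.22 to 1.52 in insulin-neutralized birds and 0.94 to 1.18 in fasted birds, with no overlap, and 0.90 to 1.44 in fed birds. That of the GAPDH control probe sets overlapped and had the lower mean in insulin-neutralized birds. It was 0.70 to 0.95 (mean 0.85) in insulin-neutralized, 0.81 to 1.02 (mean 0.92) in fasted and 0.77 to 1.06 in fed birds. The part of RNA quality in the difference of CCT3 was not tested.

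CCT6A, the zeta subunit, of which mammals carry a second form made mainly in testis, was read by 3 probe sets. By the brightest of them it measured 11.36, 11.56, 11.67, 11.66 and 11.64 in insulin-neutralized birds, 11.53, 11.83, 11.57, 11.51 and 11.70 in fasted birds, and 12.09, 11.94, 11.83, 12.22 and 11.97 in fed birds. All insulin-neutralized birds lay below all fed birds, and in fasted birds the only contact with the fed range was bird 2, level with fed bird 3 at 2 decimals. CCT6A averaged 11.63 ± 0.13 in fasted birds and 12.01 ± 0.15 in fed birds (SD, n = 5 each), a log2 fold change of -0.38 (-0.59 to -0.17) or 23.3% lower, with a limma adjusted p of 0.0242. The call held under 19 of 27 alternatives and was lost without fasted bird 1, 3 or 4 (0.0583, 0.0526 and 0.0657) and without fed bird 1 (0.053). In insulin-neutralized vs. fed birds the log2 fold change was -0.43 (-0.64 to -0.23), with an adjusted p of 0.065.

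CCT7, the eta subunit, measured 10.80, 11.19, 10.91, 11.20 and 10.99 in insulin-neutralized birds, 11.16, 11.43, 11.39, 11.17 and 11.59 in fasted birds, and 11.66, 11.36, 11.33, 11.89 and 11.55 in fed birds. All insulin-neutralized birds lay below all fed birds, whereas 3 of the 5 fasted birds lay inside the fed range. The log2 fold change in insulin-neutralized vs. fed birds was -0.54 (-0.81 to -0.27), the second largest of the 8, with a limma adjusted p of 0.0747. In fasted vs. fed birds it was -0.21 (-0.48 to 0.06), with an adjusted p of 0.337.

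CCT8, the theta subunit, whose forced expression lengthens life in the worm Caenorhabditis elegans, was also read by 3 probe sets. By the brightest of them it measured 12.17, 12.37, 12.30, 12.40 and 12.37 in insulin-neutralized birds, 12.10, 12.34, 12.13, 12.11 and 11.93 in fasted birds, and 12.93, 12.59, 12.61, 12.21 and 12.04 in fed birds. Fed birds 1 to 3 lay above all other birds, while fed birds 4 and 5 lay among the fasted birds. The log2 fold change was -0.35 (-0.66 to -0.05) in fasted vs. fed birds and -0.15 (-0.46 to 0.15) in insulin-neutralized vs. fed birds, with limma adjusted p of 0.14 and 0.589. Without fed bird 5 the fasted vs. fed adjusted p was 0.0397, and without fed birds 4 and 5 the log2 fold change was -0.59 with an adjusted p of 0.00585. CCT8 was 1 of the 2 subunits, with TCP1, whose mean in insulin-neutralized birds exceeded that in fasted birds, with a difference of 0.20 (-0.11 to 0.51).

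**Figure D2:**
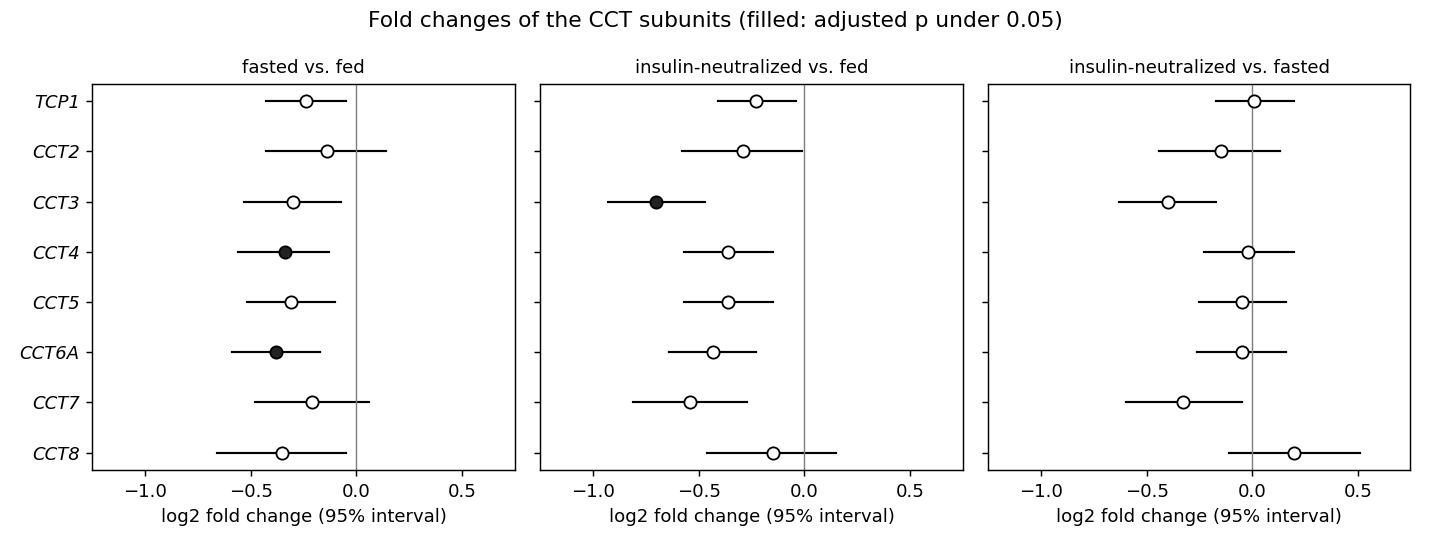
Log2 fold changes (x axis) of the 8 subunits with their 95% intervals from limma, in fasted vs. fed, insulin-neutralized vs. fed and insulin-neutralized vs. fasted birds; filled points had an adjusted p under 0.05. By the brightest probe set of each gene, points lie left of 0 for all 8 subunits in both comparisons against fed birds. CCT3 at -0.70 lies farthest left.

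The remaining 4 probe sets belong to CCT6A and CCT8. Both minor probe sets of CCT6A and 1 of CCT8 averaged 4.54, 3.84 and 3.42 over the 15 arrays, not far above the lowest value of the table, 2.18, and the other of CCT8 averaged 7.56. None was called in any comparison, and their log2 fold changes against fed birds ran between -0.24 and 0.33. The CCT8 probe set at 7.56 was higher in both fasted (0.25) and insulin-neutralized birds (0.33), as was the CCT6A probe set at 4.54 (0.27 and 0.13). The CCT6A probe set at 3.84 was lower in both (-0.11 and -0.24), and the CCT8 probe set at 3.42 differed by -0.08 and 0.12. By the mean of all probe sets of a gene, CCT6A differed by -0.07 in fasted vs. fed birds (limma adjusted p = 0.845) and by -0.18 in insulin-neutralized vs. fed birds (0.597). CCT8 differed in the same way by -0.06 (0.793) and by 0.10 (0.671), the second opposite in sign to its brightest probe set.

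The subunits are read here as a list, each by its brightest probe set. They had a median log2 fold change of -0.31 in fasted vs. fed birds, against -0.04 over all probe sets kept. In insulin-neutralized vs. fed birds it was -0.36, against -0.02. A negative log2 fold change was found for 8 of 8 subunits in fasted vs. fed birds, where 55.3% of all probe sets had one, and for 8 of 8 in insulin-neutralized vs. fed birds, where 52.7% did. Before adjustment, limma gave a p under 0.05 and a lower mean for 6 subunits in fasted vs. fed birds (all but CCT2 and CCT7), against 13.7% of all probe sets, and for 7 in insulin-neutralized vs. fed birds (all but CCT8), against 9.42%. The complete absence of overlap was found for none of the 8 in fasted vs. fed birds, against 4.17% of all probe sets, and for 4 in insulin-neutralized vs. fed birds (CCT3, CCT4, CCT6A and CCT7), against 2.06%. The subunits share birds and arrays, and several vary together among birds of 1 group, so these counts are a description and were not tested as a list.

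In insulin-neutralized vs. fasted birds the median over the subunits was -0.05, against 0.02 over all probe sets, and 6 of the 8 had a negative value, where 46.1% of all probe sets did. Before adjustment, CCT3 and CCT7 had a p under 0.05 by limma, both lower in insulin-neutralized birds, against 9.22% of all probe sets lower. CCT3 alone had no overlap, against 4.44%. For TCP1, CCT4, CCT5 and CCT6A the log2 fold changes lay between -0.05 and 0.01, with 95% intervals that reached no farther than -0.26 and 0.20. Whether 1 subunit responded differently from another was not tested.

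Bird by bird, the mean difference of the 8 subunits from the fed means was -0.54, -0.33, -0.38, -0.32 and -0.35 in insulin-neutralized birds 1 to 5, -0.34, -0.11, -0.31, -0.37 and -0.30 in fasted birds, and 0.16, -0.02, -0.07, 0.06 and -0.13 in fed birds. By their brightest probe sets, all 8 subunits lay below the fed mean in each of the 5 insulin-neutralized birds and in fasted birds 1, 3 and 4. In fasted birds 2 and 5, 7 of 8 did so. The exceptions were CCT2 in fasted bird 2 and CCT7 in fasted bird 5. In fed birds 1 to 5 the number below the group's own mean was 2, 4, 4, 2 and 7. Fasted bird 2 was the bird of either treated group nearest to fed birds, and its mean of -0.11 was slightly above that of fed bird 5.

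**Figure D3:**
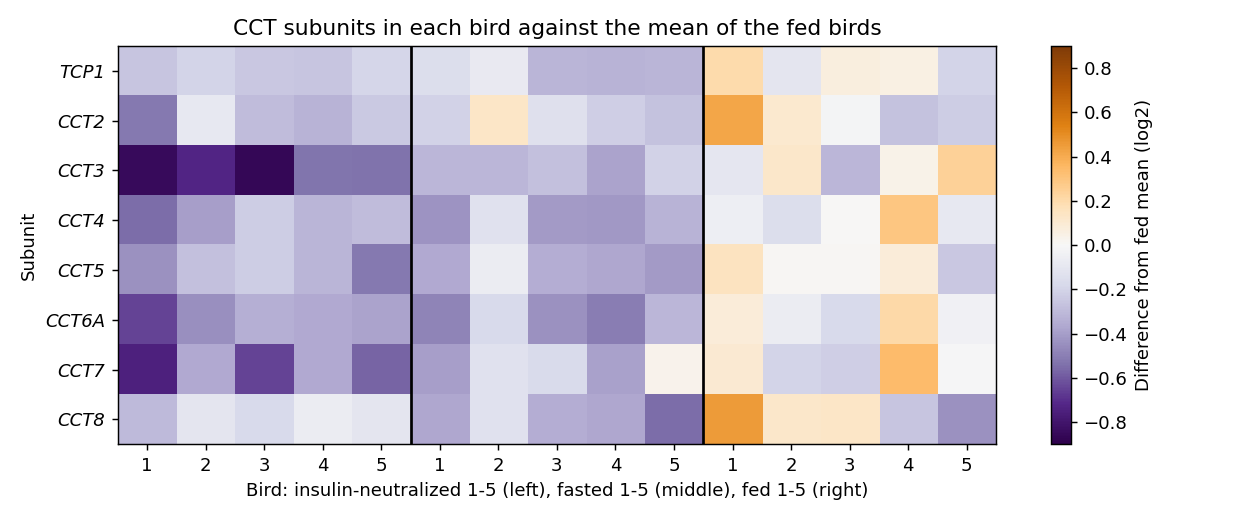
Difference of each subunit (row) in each bird (column) from the mean of the 5 fed birds, in log2 units by colour, with insulin-neutralized birds 1 to 5 at the left, fasted birds in the middle and fed birds at the right. Purple marks values below the fed mean, which all 8 subunits had in every insulin-neutralized bird, and the 2 lowest values are CCT3 in insulin-neutralized birds 1 and 3 (-0.85 and -0.86).

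Whether the subunits also moved together among birds kept alike was asked with the deviations of each bird from its group mean, over 28 pairs of subunits and 15 birds. The median Pearson r was 0.36, with a range between -0.44 and 0.89, and the median Spearman rho was 0.31. Of the pairs, 23 had a positive and 5 a negative r. Over all pairs of 9241 genes with a kept probe set that varied within groups, the median r was 0.004. An r above 0.5 was found for 10 of the 28 subunit pairs (35.7%), against 10.9% of all gene pairs. These genes were not matched to the subunits in brightness. When group means were left in, the median r of the subunits was 0.67.

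Of the 28 pairs, 3 passed a permutation test with Benjamini-Hochberg adjustment over the 28 pairs. CCT2 and CCT8 had r = 0.89 (permutation p = 0.00036, adjusted p = 0.0101) and rho = 0.85 (permutation p = 0.00089, adjusted p = 0.0249), and r was 0.78 without the 2 birds farthest from the median of CCT2. CCT4 and CCT6A had r = 0.83 (permutation p = 0.0015, adjusted p = 0.021) and rho = 0.80 (permutation p = 0.00221, adjusted p = 0.0259), and r was 0.69 without the 2 farthest birds. CCT6A and CCT7 had r = 0.77 (permutation p = 0.00271, adjusted p = 0.0253) and rho = 0.77 (permutation p = 0.00278, adjusted p = 0.0259), and r was 0.72 without the 2 farthest birds. Before adjustment, 8 pairs had a permutation p under 0.05. The tests were two-sided. Over all 28 pairs the median r was 0.27 when the 2 birds farthest from the median of the first subunit were left out of each pair, with r at 0.30 in place of 0.61 for TCP1 and CCT2 and at 0.37 in place of 0.59 for CCT4 and CCT7.

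CCT3 had the lowest correlations with the other subunits, a difference that was not tested. Its median r with the other 7 was -0.17, and its lowest was -0.44 with TCP1, whose permutation p was 0.18 (adjusted p = 0.385). CCT5 had the highest median r with the others, 0.51, followed by TCP1 and CCT4 at 0.43 and CCT6A at 0.36. CCT8 had a median of 0.10, although its r with CCT2 was the highest of all.

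**Figure D4:**
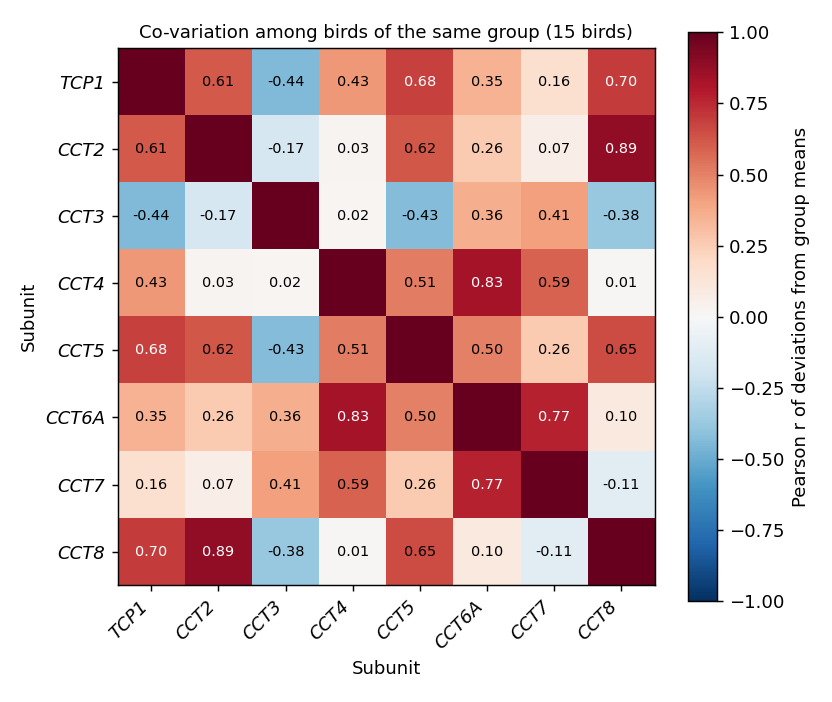
Pearson r (colour and number in each cell) between the deviations of the subunits from their group means, over 15 birds. CCT2 with CCT8 (0.89), CCT4 with CCT6A (0.83) and CCT6A with CCT7 (0.77) are the reddest pairs, and CCT3 has negative values with TCP1, CCT2, CCT5 and CCT8.

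The arrays of fed birds 4 and 5 differed most from the rest. They had mean correlations of 0.955 and 0.958 with the other arrays, the lowest of the 15, where the others lay between 0.963 and 0.977, and their poly-A control probe sets averaged 9.85 and 9.60, the highest of the 15. The mean of 7 mesothelial and lung epithelial markers was 11.96 in fed bird 4 and 8.16 in fed bird 5, the highest and the lowest of the 15, and it ran between 8.39 and 11.54 in insulin-neutralized birds and between 8.92 and 11.32 in fasted birds. Fed bird 4 was highest of all birds in CCT4, CCT6A and CCT7 but below the mean of its group in CCT2 and CCT8, and fed bird 5 was highest of all in CCT3 and lowest of its group in TCP1, CCT5 and CCT8. Without these 2 birds the median r of the subunits within groups was 0.51 (range -0.23 to 0.87) and 25 of 28 pairs were positive. The part of these array and marker differences in the subunit values was not tested.

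Markers of the adipocyte were present in all birds. The mean of 10 adipocyte genes ran between 11.30 and 12.13 in insulin-neutralized birds, between 11.65 and 12.12 in fasted birds and between 11.82 and 12.06 in fed birds. Of these 10, 2 were called lower and 1 higher in fasted vs. fed birds, and none was called in insulin-neutralized vs. fed birds. Their log2 fold changes in fasted vs. fed birds ran between -1.48 and 3.92, with a median of -0.27, and 6 were negative and 3 positive. In insulin-neutralized vs. fed birds the median was -0.22, and 8 were negative and 2 positive. A mean over genes that moved in both directions does not show that the adipocyte markers were level. Among the other cell types, 9 genes of cycling cells had a mean of 9.52 to 10.11 in insulin-neutralized birds, 9.13 to 10.04 in fasted birds and 9.31 to 10.17 in fed birds. Of these 9, 2 were called lower and none higher in fasted vs. fed birds, against the 4.69% and 4.95% of all probe sets. In insulin-neutralized vs. fed birds none of the 9 was called, against 0.494% of all probe sets, a share at which so few genes would seldom hold a call. The mean of 5 muscle genes ran between 7.98 and 9.58 in insulin-neutralized birds, between 7.59 and 8.12 in fasted birds and between 7.95 and 8.96 in fed birds. The 7 endothelial, 7 leukocyte, 6 fibroblast, 4 erythrocyte and 7 mesothelial and lung genes included 1 call against fed birds, an endothelial gene higher in fasted birds, where 4.95% of all probe sets were. The part of the adipocyte, cycling and muscle markers in the subunit values was not tested.

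Prefoldin, which hands unfolded actin and tubulin to CCT, was measured by 4 of its 6 genes. None was called, where 9.64% of all probe sets were in fasted vs. fed birds and 0.494% in insulin-neutralized vs. fed birds. The median log2 fold changes were -0.23 and -0.30 in these comparisons. PFDN5 differed by -0.44 in insulin-neutralized vs. fed birds with no overlap between the groups (limma adjusted p = 0.157), and PFDN4 by 0.22 in fasted vs. fed birds (adjusted p = 0.122). The 5 phosducin-like and other regulators had medians of -0.04 and -0.03, close to those of all probe sets, with none called.

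Of the substrates, the tubulins held most of the calls. Of 11 tubulins, 3 fell and 1 rose in fasted vs. fed birds, where 4.69% of all probe sets were called lower and 4.95% higher, and the median was -0.44. None was called in insulin-neutralized vs. fed birds, where 0.494% of all probe sets were, and the median was -0.17. TUBA1A, an alpha-tubulin of the microtubule wall, measured 13.56, 13.80, 13.70, 13.30 and 13.78 in fasted birds against 14.22, 13.74, 14.43, 14.88 and 14.58 in fed birds. Fed bird 2 lay inside the fasted range, and the other 4 fed birds lay above it. The log2 fold change was -0.74 with a limma adjusted p of 0.0197, which was 0.0557 without fasted bird 4 and 0.0883 without fed birds 4 and 5. TUBB6 (-0.65, adjusted p = 0.0413) and TUBG1 (-0.48, adjusted p = 0.0392), a beta-tubulin and the gamma-tubulin that starts microtubules, held under 12 and 10 of 27 alternatives. Leaving out a single bird lost the call of TUBB6 for insulin-neutralized birds 2, 4 and 5, fasted birds 1, 3, 4 and 5, and fed birds 1 to 4 (adjusted p 0.0503 to 0.0933). The call of TUBG1 was lost in the same way for insulin-neutralized birds 2, 3 and 5, fasted birds 1 to 4, and fed birds 1, 4 and 5 (0.0502 to 0.0853). TUBD1, delta-tubulin of the centriole, was the 1 that rose, by 0.76 (0.0463), and was lower by 1.03 in insulin-neutralized vs. fasted birds (0.0198). Its probe sets disagreed in sign, and the mean over them was called in neither comparison (adjusted p of 0.36 and 0.86). In insulin-neutralized vs. fed birds TUBD1 differed by -0.27 by its brightest probe set (limma adjusted p = 0.541).

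Among 9 actins and actin-related genes, each read by its brightest probe set, only ACTA1, the actin of skeletal muscle, was called. Of all probe sets, 4.69% were called lower in fasted vs. fed birds. The log2 fold change of ACTA1 in that comparison was -1.10 (limma adjusted p = 0.0139). That call was lost without fed birds 4 and 5 (adjusted p = 0.0622), and ACTA1 is also 1 of the muscle markers above. In insulin-neutralized vs. fasted birds ACTA1 was higher by 1.25 (adjusted p = 0.0139), where 1.54% of all probe sets were called higher. In insulin-neutralized vs. fed birds it differed by 0.14 (limma adjusted p = 0.797). The median over the actins by these probe sets was -0.03 in fasted vs. fed birds and -0.02 in insulin-neutralized vs. fed birds. For the cytoplasmic actins the choice of probe set changed the call: the brightest of ACTB and ACTG1, with fed means of 15.64 and 15.57, differed by -0.14 and 0.03 in fasted vs. fed birds, while a dimmer probe set of each fell with no overlap between the groups, by 0.59 (limma adjusted p = 0.00427) for ACTB and by 0.45 (adjusted p = 0.0135) for ACTG1. Of all probe sets, 4.17% were lower with no overlap in that comparison. None of 15 WD40-repeat and other substrates and none of 5 tubulin folding cofactors was called in any comparison. Of all probe sets, 9.64% were called in fasted vs. fed, 0.494% in insulin-neutralized vs. fed and 4.06% in insulin-neutralized vs. fasted birds. Lists this short can hold no call at such shares. Their medians were -0.05 and -0.30 in fasted vs. fed birds and 0.01 and -0.06 in insulin-neutralized vs. fed birds. All 5 cofactors were negative in the first comparison, and 3 were negative and 2 positive in the second. The 2 measured chaperonin-like BBS genes were not called either.

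The mitochondrial chaperonin, a separate folding machine of the HSP60 type, was lower in both comparisons against fed birds, as the CCT subunits were. Both of its 2 genes were called in fasted vs. fed birds, where 4.69% of all probe sets were called lower. The chaperonin had neither gene called in insulin-neutralized vs. fed birds, where 0.494% of all probe sets were. HSPD1, its barrel subunit, measured 11.98, 12.17, 12.10, 12.03 and 11.97 in insulin-neutralized birds, 12.23, 12.32, 11.95, 11.96 and 11.78 in fasted birds, and 12.95, 12.60, 12.70, 12.49 and 12.08 in fed birds. Fed bird 5 lay among the other groups, and the other 4 fed birds lay above all birds of both. The log2 fold change was -0.51 in fasted vs. fed birds (limma adjusted p = 0.039) and -0.51 in insulin-neutralized vs. fed birds (adjusted p = 0.127). The call of HSPD1 held under 11 of 27 alternatives and was lost without any 1 of fasted birds 3 to 5, fed birds 1 to 4 or the insulin-neutralized birds (0.0504 to 0.0885). HSPE1, its lid, differed by -0.31 (adjusted p = 0.0248) and -0.29 (adjusted p = 0.119) in these comparisons, and its call in fasted birds was lost without fasted bird 4 (0.0693) or fed bird 1 (0.0523).

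Cytosolic heat shock proteins and their helpers, genes that heat shock factors control in other species, were listed together with the heat shock factors themselves. This list was measured by 23 genes, and the factor HSF3 is counted among those that rose. Of these, 3 fell (4.69% of all probe sets did) and 2 rose (4.95%) in fasted vs. fed birds, and their median was -0.16. In insulin-neutralized vs. fed birds 3 fell (0.226% of all probe sets did) and none rose, and the median was -0.33. Dimmer probe sets added a call of BAG3 in fasted vs. fed birds (-0.50, limma adjusted p = 0.0279) and of ST13P5, listed as ST13, in insulin-neutralized vs. fed birds (-0.69, adjusted p = 0.0462). The dimmer probe sets of this list that were not called are not counted here. AHSA1, which stimulates the ATPase of HSP90, measured 10.82, 11.11, 10.95, 10.99 and 10.98 in insulin-neutralized birds, 11.03, 11.15, 11.16, 10.94 and 11.24 in fasted birds, and 11.83, 11.69, 11.54, 11.59 and 11.67 in fed birds. All 10 treated birds lay below all fed birds. Its log2 fold changes were -0.56 in fasted vs. fed birds (limma adjusted p = 0.00106) and -0.70 in insulin-neutralized vs. fed birds (0.0051), and both calls held under all 27 alternatives.

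FKBP4, another HSP90 partner, fell by 0.44 on the log2 scale in both comparisons (limma adjusted p of 0.00499 in fasted and 0.0377 in insulin-neutralized vs. fed birds). The second call was lost under 15 of 27 alternatives. Among them were those without any 1 of the insulin-neutralized birds or any 1 of fed birds 1 to 4. With insulin-neutralized birds 1 to 5 left out in turn, 7, 8, 9, 22 and 28 of all 18612 probe sets were called in insulin-neutralized vs. fed birds. The main fit called 92 there. DNAJA1, an HSP40 that feeds HSP70, fell by 1.23 in fasted vs. fed birds (0.00177), and in insulin-neutralized vs. fed birds it differed by -0.62 (0.168). HSPA8, the constitutive cytosolic HSP70, fell by 0.51 in insulin-neutralized vs. fed birds (0.0338), and this call was lost under 11 of 27 alternatives, among them those without any 1 of the insulin-neutralized birds or without fed bird 3 or 4. It also fell by 0.42 in insulin-neutralized vs. fasted birds (0.0212), which held under 23 of 27 (lost without fasted bird 4 or insulin-neutralized bird 1, 4 or 5, 0.0503 to 0.0579), and in fasted vs. fed birds it differed by -0.09 (0.591). HSF3, a heat shock factor of birds, rose by 0.57 in fasted vs. fed birds (0.00402). The calls of DNAJA1, HSF3 and, in fasted birds, FKBP4 held under all 27 alternatives. DNAJB6, another HSP40, rose by 0.51 in fasted vs. fed birds (0.0492), held under 9 of 27 and was lost when insulin-neutralized bird 1, 2 or 4, any 1 of the fasted birds, or fed bird 2, 4 or 5 was left out (0.0601 to 0.106). HSPA2, an HSP70 abundant in the mammalian testis, was lower by 0.70 in insulin-neutralized vs. fasted birds (0.0145), which held under all 27. Against fed birds it was called in neither group, with 0.38 in fasted (limma adjusted p = 0.115) and -0.33 in insulin-neutralized birds (0.262).

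**Figure D5:**
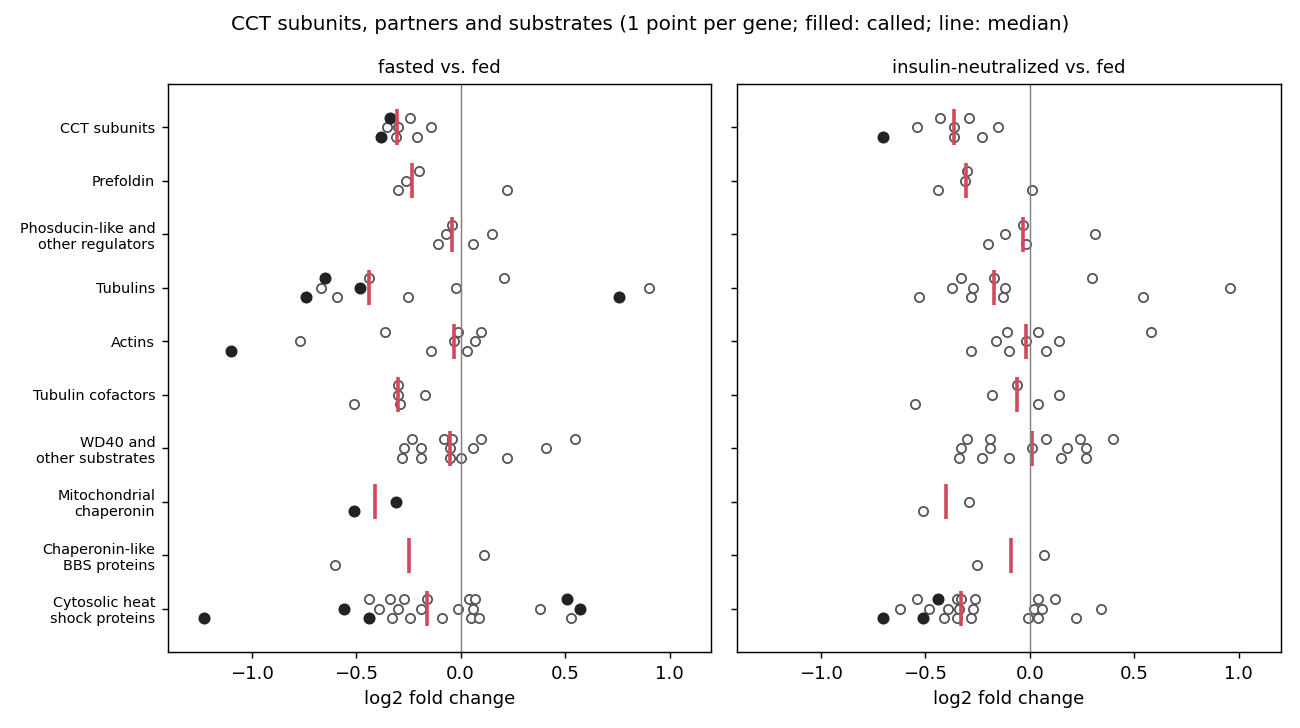
Log2 fold changes (x axis) of each gene, 1 point per gene, in the CCT subunits and in lists of partners, substrates and other chaperones, for fasted vs. fed birds at the left and insulin-neutralized vs. fed birds at the right; filled points had an adjusted p under 0.05 and lines mark medians. The CCT subunits lie between -0.38 and -0.14 in the first panel and between -0.70 and -0.15 in the second. The 11 tubulins spread wider (between -0.74 and 0.90 in the first). Some shorter lists were narrower, such as the 2 mitochondrial chaperonin genes (-0.51 to -0.31 in the first) and the 4 prefoldin genes (-0.44 to 0.01 in the second).

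The genes whose values followed the mean of the 8 subunits most closely over all 15 birds were HYOU1 (r = 0.93), AHSA1 (0.93), AIMP2 (0.92), HSPA5 (0.91) and APRT (0.91), a description that includes the differences between groups and shares the arrays. HYOU1 and HSPA5 (BiP) are chaperones of the endoplasmic reticulum, AIMP2 is a scaffold of the aminoacyl-tRNA synthetase complex and APRT salvages adenine. HSPA5 measured 13.47, 13.91, 13.79, 13.76 and 13.65 in insulin-neutralized birds, 13.69, 14.13, 13.62, 13.69 and 13.52 in fasted birds, and 14.52, 14.49, 14.61, 14.86 and 14.18 in fed birds, with no overlap between the fed and the other birds. Its log2 fold changes were -0.80 in fasted vs. fed birds (limma adjusted p = 0.00239) and -0.82 in insulin-neutralized vs. fed birds (0.0292). The second of these was lost under 9 of 27 alternatives. Among them were those without any 1 of the insulin-neutralized birds or without fed bird 1 or 4. Without insulin-neutralized birds 1 to 5 in turn, only 7, 8, 9, 22 and 28 of all 18612 probe sets were called, against 92 in the main fit.

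Within groups the closest genes were MCM5 (r = 0.86), a DNA helicase subunit loaded before replication, CINP (0.86), a partner of kinases that act in DNA replication, RAN (0.84), the GTPase of nuclear transport, PSMC3IP (0.83), a factor of meiotic recombination, and MRPL39 (0.82), a protein of the mitochondrial ribosome. These r values ran between 0.79 and 0.88 without fed birds 4 and 5. The genes were picked for the highest r of all genes over these same birds, so the values are a description and no separate check. MCM5 is also 1 of the 9 markers of cycling cells, and its log2 fold change was -1.13 in fasted vs. fed birds (limma adjusted p = 0.00713) and -0.80 in insulin-neutralized vs. fed birds (0.131). These were the lowest values of the 9 in both comparisons. The median of the 9 was -0.27 in fasted vs. fed birds, with 8 negative and 1 positive. In insulin-neutralized vs. fed birds the median was 0.11, with 3 negative and 6 positive.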

How the data were processed

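Abdominal adipose RNA of 15 birds was hybridized to 1 array per bird, and the labels call the birds of a group biological replicates. The limma p-values thus set differences between group means against the spread between birds. The deposited values are log2 GCRMA values that the authors made from the scanned arrays, with R 2.9.0 per the submitters' processing notes, in a table of 38535 probe sets. The genome build was not given in the sources used here. GCRMA sets many dim probe sets near a common floor, so changes of dim probe sets can be understated. Dim values can also scatter widely, as the CCT6A probe set with a mean of 4.54 did in fed birds (2.85 to 5.91, SD 1.12). The precision of each value is limited by how many arrays there were.

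After removal of 96 control probe sets, probe sets below 3 on at least 5 arrays were left out, as in the study's methods, which kept 18612. Genes were named from the platform's annotation, which can be old, and from probe sets with 1 symbol. Each gene was represented by its kept probe set with the highest mean. Probe sets with the ending _s_at or _a_at can read several transcripts of 1 gene or of close relatives. The 3 group means were fitted with limma 3.58.1 (R 4.3.3) and tested with its moderated statistic over all 15 arrays, with Benjamini-Hochberg adjustment over all probe sets within a comparison, and a probe set was called at an adjusted p under 0.05. The procedure was tested on simulated data. Pairs of subunits were tested with 100000 permutations of the deviations within groups.

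Named genes were the 8 subunits, up to 4 called genes of each list per comparison, prefoldin and the mitochondrial chaperonin, and the 5 genes closest to the subunit mean over all birds and within groups. The lists were prefoldin, phosducin-like and other regulators, tubulins, actins, tubulin cofactors, WD40-repeat and other substrates, mitochondrial chaperonin, BBS chaperonin-like proteins, cytosolic heat shock proteins, and markers of 8 cell types. The members and lists were chosen with earlier results of these data known. The alternatives were no filter, another reading of the filter, median centring, a further quantile normalization, trend and robust moderation, array weights, only the 2 groups compared, a replicate block, 1 adjustment over the 3 comparisons, 1 probe set or the mean of all probe sets per gene, each bird left out, and fed birds 4 and 5 left out. Sequences and coordinates are not printed.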

Additional observations from a re-analysis of the deposited data

Results flagged for a closer look

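In 3 of 39 groups of 5 birds, over the 13 subunit probe sets, 1 bird lay far from the other 4 by Dixon's test at its 95% critical value of 0.71, where chance gives about 1 in 20 groups. CCT5 was 11.47 in fasted bird 2, where the other fasted birds measured 11.13 to 11.19. A dim probe set of CCT8, the lowest of its 3 by mean, was 4.12 in insulin-neutralized bird 2, where the other birds of that group measured 3.27 to 3.44, and 3.05 in fasted bird 3, where the other fasted birds measured 3.34 to 3.46.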

How the results depend on the processing

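The median log2 fold changes of the subunits moved by less than the SD between birds of the subunit mean (0.0956 to 0.106) under every alternative. Leaving out 1 of 5 birds can hardly exceed that SD, so this is a weak check. With 1 bird left out they ran between -0.33 and -0.26 in fasted vs. fed birds and between -0.40 and -0.32 in insulin-neutralized vs. fed birds. In insulin-neutralized vs. fasted birds they ran between -0.08 and 0.01. The median correlation, 0.36, ran between 0.24 and 0.42 with 1 bird left out and was 0.51 without fed birds 4 and 5. Its yardstick, a standard error of 0.168, came from the same leave-one-out values and so cannot judge them. The counts of subunits called (2, 1 and 0) depended on the settings. In fasted vs. fed birds the count was 1 with no filter, 1 with arrays centred on their medians, 5 with array weights (TCP1, CCT4, CCT5, CCT6A and CCT8), 0 with only the 2 groups compared, 1 with the 3 comparisons adjusted together and 1 with the mean of all probe sets of a gene. In the same order, 1186 of 38439, 1614, 2171, 960 and 1315 of 18612 probe sets and 1018 of 9243 genes were called. The main fit called 1794 of 18612. Without fed birds 4 and 5 the count was 2, with 1667 of all probe sets called, but the genes were CCT5 and CCT8. In insulin-neutralized vs. fed birds it was 3 with array weights, 0 with only the 2 groups, 3 with joint adjustment (CCT3, CCT6A and CCT7) and 0 without fed birds 4 and 5. In the same order, 187, 6, 383 and 31 of all 18612 probe sets were called, against 92 in the main fit. The number of calls over all probe sets thus changed with these settings too. In insulin-neutralized vs. fasted birds it was 1 (CCT3) with array weights, only the 2 groups, joint adjustment, 1 probe set per gene, the mean of all probe sets, or without fed birds 4 and 5. In the same order, 1789, 1036 and 788 of 18612 probe sets, 455 and 443 of 9243 genes, and 1512 of 18612 probe sets were called. The main fit called 756. With 1 bird left out the counts ran between 0 and 5, between 0 and 1 and between 0 and 1: in fasted vs. fed birds, 5 were called without fed bird 5 and 0 without fasted bird 1, 3 or 4 or fed bird 1. Over all probe sets, 1636 were called without fed bird 5, and 1363, 1436, 1180 and 1490 in the other settings named, in that order. In insulin-neutralized vs. fed birds the count was 0 without insulin-neutralized bird 1, 2 or 3. Over all 18612 probe sets, 7, 8 and 9 were called there. In insulin-neutralized vs. fasted birds the count was 1 without fed bird 3 or 5, where 710 and 934 of all probe sets were called. Of 15 pairs of same-numbered birds, 7 had a correlation of deviations above 0.1 (median 0.1, range -0.39 to 0.38). For 5 of the 15 birds, the best match in another group had the same number. Pairs with different numbers were not summarized beside these. The labels tie the numbers to nothing shared, so the birds were not taken as paired. With the replicate number as a block the counts were 0, 1 and 1, and 1537, 8 and 638 of all 18612 probe sets were called. TUBD1 in insulin-neutralized vs. fasted birds was -1.03 by its brightest probe set and 0.06 by the mean of its probe sets. The cause of these changes was not tested.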
